A study of Rattus norvegicus with 20 samples.

Results

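The mir-10 and mir-196 families are microRNA (miRNA) genes that lie inside the Hox gene clusters. They were taken from the miRBase lists of the series by name, as mir-10a, mir-10b and every precursor whose name begins with mir-196, together with the mature arms cut from them. Of the 444 entries of the precursor list 6 met this rule (listed as rno-mir-10a, rno-mir-10b, rno-mir-196a, rno-mir-196b-1, rno-mir-196b-2 and rno-mir-196c), as did 10 of the 577 mature miRNAs. Small RNA was sequenced in 20 libraries from Long Evans rats, all of them males without any treatment, at postnatal day 35. The groups were 3 brain hemispheres and 3 serum libraries as replicates, and 14 further tissues with 1 library each, for which the miRNA of 3 rats was pooled. These pools were subcutaneous abdominal fat, heart, kidney, large intestine, liver, lung, hindlimb skeletal muscle, pancreas, skin, small intestine, spleen, stomach, testes and thymus. The purpose of the tissue series was to ask which tissues a serum miRNA might come from. A pool carries no estimate of the spread between animals, so only its counting error is known.

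A miRNA is transcribed as a long primary transcript, cut to a hairpin precursor and then to a mature strand from the 5′ arm (-5p) or the 3′ arm (-3p), and the mature strand pairs with messenger RNAs mainly through its seed. Hox genes are transcription factor genes whose order along the chromosome follows the order in which they are used along the body from head to tail, and their expression tends to persist in adult tissues. The miRNAs embedded in the clusters tend to share the regional expression of the genes around them, and mir-196 is known to direct cleavage of the Hoxb8 messenger RNA. In the RefSeq gene table of the GRCr8 assembly, Mir10a lies on chromosome 10 between Hoxb5 and Hoxb4, and Mir10b lies on chromosome 3 inside the span of Hoxd4. Mir196a lies on chromosome 7 between Hoxc10 and Hoxc9, Mir196b on chromosome 4 between Hoxa9 and Hoxa10, and Mir196c on chromosome 10 between Hoxb13 and Hoxb9. All 4 Hox clusters are therefore represented, and mir-10a and mir-196c share one of them. Coordinates are not given, because the reads were aligned to the earlier Rn5 build.

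The mature 5p strands are shown because their seeds and their start positions bear on how the reads of mir-10b were counted. They are RefSeq sequences (GRCr8), written 5′ to 3′ with the seed, bases 2 to 8, in capitals.
miR-10a-5p: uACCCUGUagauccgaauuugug
miR-10b-5p as listed: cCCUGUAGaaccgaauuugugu
mir-10b hairpin, window aligned to miR-10a-5p: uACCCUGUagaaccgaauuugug
miR-196a-5p: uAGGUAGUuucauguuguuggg
miR-196b-5p: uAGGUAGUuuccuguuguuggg
miR-196c-5p: uAGGUAGUuucguguuguuggg
The 3 mir-196 strands share the seed AGGUAGU. Counted from the 5′ end of miR-196a-5p, miR-196b-5p differs from it by A12C and miR-196c-5p by A12G. The 23 bases of miR-10a-5p match the mir-10b hairpin at 22 positions, with U12A as the difference. In that alignment the listed miR-10b-5p starts 2 bases after the start of miR-10a-5p, so its seed by the same count, CCUGUAG, is not that of miR-10a-5p, ACCCUGU. The names mir-196b-1 and mir-196b-2 are copies that share a mature miRNA in the list, and they are not treated as separate results. RefSeq holds 1 of these copies as Mir196b, and no sequence of the other is shown.

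Depth differed most between serum and the rest. Precursor reads ranged from 388275 to 1204552 in the hemispheres and from 162080 to 3685761 in the pools, but only from 7556 to 10862 in serum. A count of 3 reads therefore corresponded to 276 to 397 reads per 1000000 precursor reads (RPM, the level unit used here) in single serum libraries and to at most 18.5 RPM elsewhere. Of the brain markers, 6 precursors of mir-124 and mir-9a summed to between 35902 and 43900 RPM in the hemispheres. The library labelled pancreas held no reads of mir-216a or mir-217 and 1 read of mir-216b, which are defining miRNAs of the exocrine pancreas, with mir-375 at 496 RPM. The same library held the liver miRNA mir-122 at 14862 RPM, beside 14726 RPM in the liver library. Values called pancreas below are those of this library, and it is not taken as a tissue independent of liver.

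The share of miRNA reads taken by mir-10a and mir-10b together differed widely between tissues. They made up 35.8% of precursor reads in kidney, 26.3% in fat and 23.6% in testes, and 25.9%, 23.0% and 17.0% in the serum libraries of replicates 1, 2 and 3. In the hemispheres the same share was 0.798%, 1.02% and 1.77%. Every other library lay above them, but thymus (2.06%), pancreas (2.63%), heart (3.09%) and liver (3.26%) were close to the highest hemisphere. At least 1 of them was the most abundant precursor in 7 of the 20 libraries, namely fat, kidney, muscle, skin, testes and the serum libraries of replicates 1 and 2. Bulk RNA cannot tell fewer cells of a type from less RNA per cell, and this holds for each level given here.

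The level of mir-10a was highest in kidney, at 159309 RPM, and lowest in testes, at 3492 RPM, a 45.6-fold range over the tissues. After kidney came lung at 92112, large intestine at 82388, fat at 69531 and spleen at 65273 RPM. Small intestine at 52910 and stomach at 51207 RPM followed. Liver at 31014, muscle at 27590, heart at 26507 and pancreas at 25153 RPM formed a close group. Skin at 14956 RPM stood below them, and thymus at 5009 RPM was near the brain. The hemispheres held 3373, 3422 and 5751 RPM, a mean of 4182 RPM ± 1359 (SD, n = 3), second from the bottom of the 15 tissues. The hemispheres themselves differed by up to 1.71-fold. Only 2 of the 14 steps between neighbours in the order were larger than that, from kidney to lung (1.73-fold) and from skin to thymus (2.99-fold), so the other neighbours were not separated beyond the spread seen within 1 tissue.

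The order for mir-10b was another one. It was highest in testes, at 232046 RPM, and lowest in the library labelled pancreas, at 1110 RPM, a 209-fold range. Lung was next to the lowest, at 1362 RPM. Kidney at 198457, fat at 193172, skin at 140154, muscle at 121983 and large intestine at 98118 RPM made up the upper group with testes. Spleen at 34234, stomach at 21563, thymus at 15608 and small intestine at 15233 RPM were intermediate. The hemispheres held 4603, 6764 and 11935 RPM, with a mean of 7767 RPM ± 3767 (SD, n = 3). Below the brain lay heart at 4399, liver at 1604 and lung at 1362 RPM, with pancreas last. The hemispheres differed by up to 2.59-fold, and 2 of 14 steps exceeded this, from large intestine to spleen (2.87-fold) and from heart to liver (2.74-fold). The order thus showed an upper group of 6 tissues and a lower group of liver, lung and pancreas. Both groups stood apart from the rest by more than the hemispheres differed. The lower group rests on liver and lung, since the library labelled pancreas carried mir-122 at the level of liver. Counting error was small beside these differences, since the least certain level, mir-10b in pancreas from 224 reads, had a 95% Wilson interval of 974 to 1266 RPM. Such intervals cover counting error only.

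**Figure D1:**
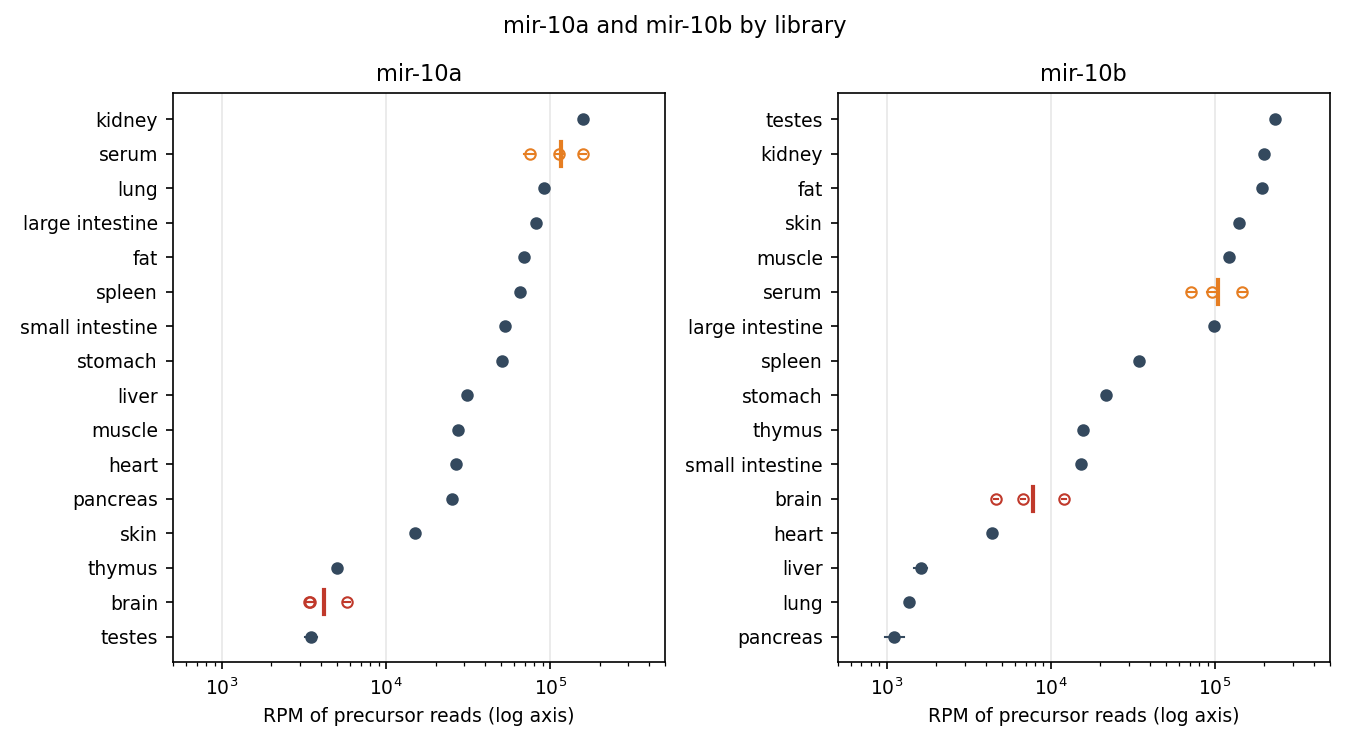
Levels of the mir-10a (left) and mir-10b (right) precursors in RPM on a log axis, with tissues and serum in the order of their mean. Filled points are single pools, open points are the replicate brain and serum libraries with their mean as an upright bar, and thin horizontal lines are 95% Wilson intervals. Testes is at the bottom for mir-10a (3492 RPM) and at the top for mir-10b (232046 RPM), while lung is near the top for mir-10a (92112 RPM) and near the bottom for mir-10b (1362 RPM).

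The balance of the pair was then taken within each library, where it does not depend on library scaling. Lung held 67.6 reads of mir-10a for each read of mir-10b, and testes held 66.4 reads of mir-10b for each read of mir-10a. On the log2 scale the ratio of mir-10a to mir-10b was 6.08 in lung, 4.50 in pancreas, 4.27 in liver, 2.59 in heart, 1.80 in small intestine, 1.25 in stomach and 0.93 in spleen. It was below 0 in large intestine (-0.25), kidney (-0.32), fat (-1.47), thymus (-1.64), muscle (-2.14), skin (-3.23) and testes (-6.05). Thus 7 pools held more mir-10a and 7 held more mir-10b. Pancreas and liver are not read as separate tissues here, given the mir-122 in the library labelled pancreas. Kidney and large intestine were near balance, with 97435 and 303664 reads of mir-10a beside 121378 and 361641 reads of mir-10b. Since the strands differ at a single base, reads with a sequencing error could be assigned to the wrong one. The most uneven libraries limit how far this can have gone, as the mir-10b reads in lung were 1.48% of its mir-10a reads and the mir-10a reads in testes were 1.5% of its mir-10b reads.

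The hemispheres all held more mir-10b than mir-10a, with log2 ratios of -0.45, -0.98 and -1.05 for replicates 1, 2 and 3. In serum the ratios were -0.36, 1.14 and -0.35. No hemisphere overlapped a serum library, and the mean difference, brain minus serum, was -0.97. Its exact two-sided permutation p was 0.10 (n = 3 and 3), the smallest this design allows, and 0.30 after Benjamini-Hochberg adjustment over the 3 ratio comparisons. Against the 14 pools the mean ratio of the brain differed by -1.28 (exact permutation p = 0.526, adjusted 0.790), and that of serum by -0.31 (exact permutation p = 0.856, adjusted 0.856). The pools themselves ranged from -6.05 to 6.08, and neither brain nor serum differed from them beyond that spread. Brain and serum each count as 3 units beside 14 different tissues there, so the p-values against the pools are only approximate.

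**Figure D2:**
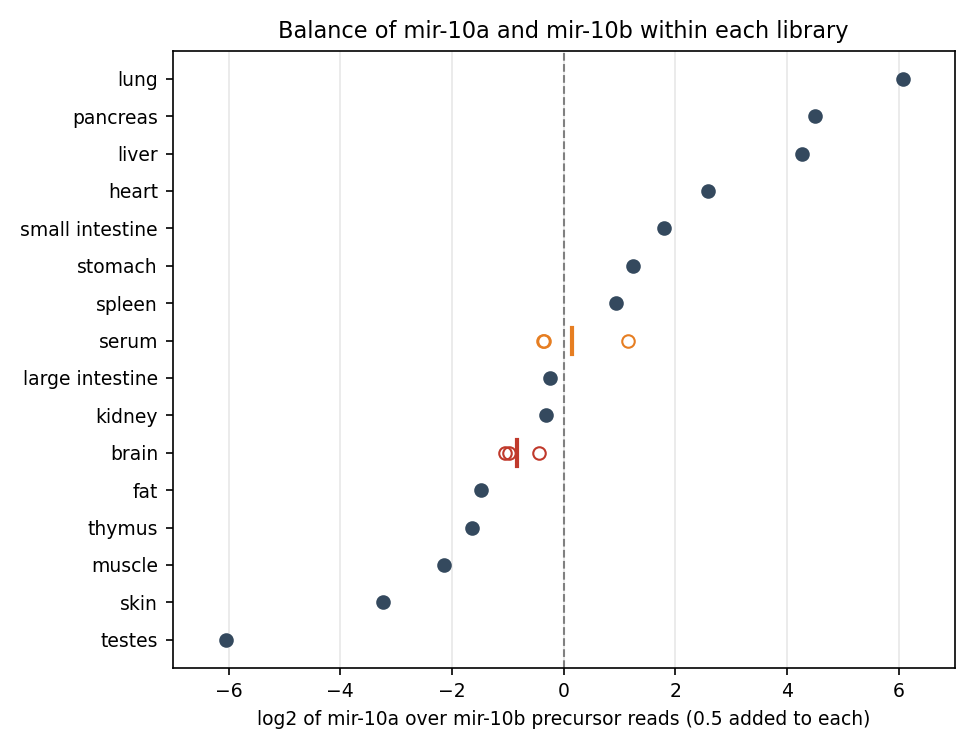
The log2 ratio of mir-10a to mir-10b precursor reads in each library, with 0.5 added to each count, in the order of the mean. Filled points are pools, open points are replicate brain and serum libraries with their mean as an upright bar, and the dashed line marks equal reads. The pools run from -6.05 in testes to 6.08 in lung, and the 3 hemispheres lie between -1.05 and -0.45.

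The serum library of replicate 2 was the only one of the serum libraries with more mir-10a than mir-10b, with 1721 and 779 reads. In replicates 1 and 3 the reads were 857 and 1103, and 595 and 757. The same library held 86.5% of all mir-122 reads found in serum, at 142147 RPM beside 21175 and 10340 RPM in replicates 1 and 3. Liver, which mir-122 marks, held 19.3 reads of mir-10a for each of mir-10b. Taking mir-122 out of the total moved mir-10a in this library from 158442 to 184696 RPM and mir-10b from 71718 to 83602 RPM. The part of liver RNA in this difference was not tested.

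Levels in brain were lower than in serum for both miRNAs. mir-10a had 113420, 158442 and 75032 RPM in serum replicates 1, 2 and 3, all above the highest hemisphere, and the fitted difference was 30.4-fold (log2 fold change of brain over serum -4.93, SE 0.47, adjusted p = 2.3e-06, edgeR's quasi-likelihood test with Benjamini-Hochberg adjustment). mir-10b had 145977, 71718 and 95460 RPM in serum, also without overlap, and the fitted difference was 13.8-fold (log2 fold change -3.78, SE 0.45, adjusted p = 1.5e-05, edgeR). These were the only members with enough reads in the 6 libraries to be tested, and 2 of 2 were lower in brain, where 18.7% of the 235 tested precursors were lower. The size of the difference depended on the libraries and the filter. Without the hemisphere of replicate 1, 2 or 3 the log2 fold change was -3.91, -3.95 or -4.28 for mir-10a and -2.66, -2.87 or -3.30 for mir-10b, and on the precursors that reached 10 counts in all 6 libraries it was -3.79 and -2.71, all still called. The median log2 fold change over all tested precursors was 2.15, so both members lay on the other side of it. A precursor could pass this filter through the deeper hemispheres alone. With at least 10 counts in all 6 libraries, 20 of 51 precursors were called lower in brain and the median was 0.69. On the mature list the call for mir-10b was lost, with a log2 fold change of -0.25 for miR-10b-5p (adjusted p = 0.741, edgeR), where the value rests on 329 reads in the hemispheres and 6 in serum.

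Brain was also set against all 14 pools at once, with the spread from tissue to tissue as the error. The hemispheres are 1 tissue but count as 3 libraries there, so that these p-values can come out too small. mir-10a was lower in brain, with a log2 fold change of -4.97 (SE 1.29, adjusted p = 0.0061, edgeR), and every pool except testes and thymus lay above every hemisphere. For mir-10b the log2 fold change was -4.51 (SE 1.77, adjusted p = 0.0489, edgeR), with 4 pools below all hemispheres. This call was lost when any hemisphere was left out (adjusted p = 0.121 to 0.157, edgeR), with library totals in place of TMM scaling (-3.32, adjusted p = 0.090, edgeR), and on the mature list. The call for mir-10a was lost without the hemisphere of replicate 2 (adjusted p = 0.050, edgeR). Of the 295 tested precursors 18.6% were lower in brain. Levels relative to the median of the 15 tissues, on the log2(RPM + 1) scale and without a test, were -2.89 for mir-10a (SD of the hemispheres 0.44) and -1.47 for mir-10b (SD 0.69). They were further down with TMM scaling (-4.28 and -2.90) and with DESeq2 size factors (-4.88 and -3.36), and on the mature list miR-10b-5p in brain was at the median (0).

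Serum and the pools did not differ beyond the spread between tissues. The log2 fold change of serum over the pools was -0.45 for mir-10a (SE 0.98, adjusted p = 0.722, edgeR) and -1.13 for mir-10b (SE 1.42, adjusted p = 0.517, edgeR). Both turned positive with library totals, at 1.20 and 0.43, so no direction is read from them. In this comparison 22.9% of the 236 tested precursors were called in either direction. Serum and brain share their libraries with the other comparisons, so the 3 sets of values are not independent.

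The mature lists gave another picture for mir-10b than for mir-10a. For mir-10a, between 84.8% and 97.8% of the precursor reads were counted on its mature arms in the 20 libraries. The share was 89.0%, 90.8% and 88.5% in the hemispheres and 97.4%, 96.3% and 97.8% in serum. Nearly all of these reads were on the 5p arm, with 718069 reads of miR-10a-5p and 307 of miR-10a-3p over all libraries. For mir-10b, only 0.0907% to 2.68% of the precursor reads were counted on the mature arms, so that 939420 precursor reads stood beside 8024 reads of miR-10b-5p and 28 of miR-10b-3p. In skin 1564 of 105521 mir-10b reads were counted as miR-10b-5p, in testes 721 of 37610, and in kidney 581 of 121378.

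The shares also differed between libraries. The hemispheres had 2.43%, 2.38% and 2.20% of mir-10b reads on the mature arms, and serum had 0.0907%, 0.257% and 0.396% from 1, 2 and 3 reads of miR-10b-5p. These groups did not overlap, and mir-10a went the other way, with a higher mature share in serum than in the brain. Among the pools the mir-10b share was highest in pancreas (2.68%, from 6 reads), testes (1.93%), fat (1.77%), spleen (1.49%) and skin (1.48%), and lowest in thymus (0.409%). As shown with the sequences, the listed miR-10b-5p starts 2 bases further along than miR-10a-5p. The deposited tables do not hold read positions, so whether that start sets the low share was not tested.

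A low mature share was not particular to mir-10b. Arms were matched by name for 140 precursors with at least 1000 reads. Numbered copies were thereby set against copy-named arms only, and let-7 precursors against arms of miR-7, so their shares can be far too low. The 27 precursors under 10% and the median of 66.5% include such entries and are not read as a result. Among precursors with 2 matched arms, mir-378a (0.0554%) and mir-421 (0.844%) lay below mir-10b (0.857%), with mir-222 (0.965%) just above. For mir-10a the share was 86.9%. By read number, mir-10b was 3rd of the 140 precursors, so its missing reads weighed on whole libraries. They made up 57.4% of the difference between the precursor and mature totals in testes, 54.2% in fat, 51.8% in kidney, 44.3% in skin, 42.1% in large intestine and 41.3% in the serum library of replicate 1. In the hemispheres they made up 2.93%, 4.42% and 7.46%. The smaller totals raised other mature levels in the same libraries, so that miR-10a-5p in kidney stood at 225549 RPM of mature reads while mir-10a stood at 159309 RPM of precursor reads.

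Levels of miR-10b-5p were accordingly low. They were 132, 190 and 311 RPM of mature reads in the hemispheres, and 205, 285 and 553 RPM in serum. In the pools they ran from 15.6 RPM in lung to 7374 RPM in testes, with fat at 5260 and skin at 3018 RPM next to testes. The extremes at the upper end were those of the precursor, since testes, fat and skin were also among its 4 highest tissues. For miR-10a-5p the values were 3545, 3652 and 6037 RPM in the hemispheres, 170861, 236115 and 107242 RPM in serum, and 4899 RPM (testes) to 225549 RPM (kidney) in the pools.

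**Figure D3:**
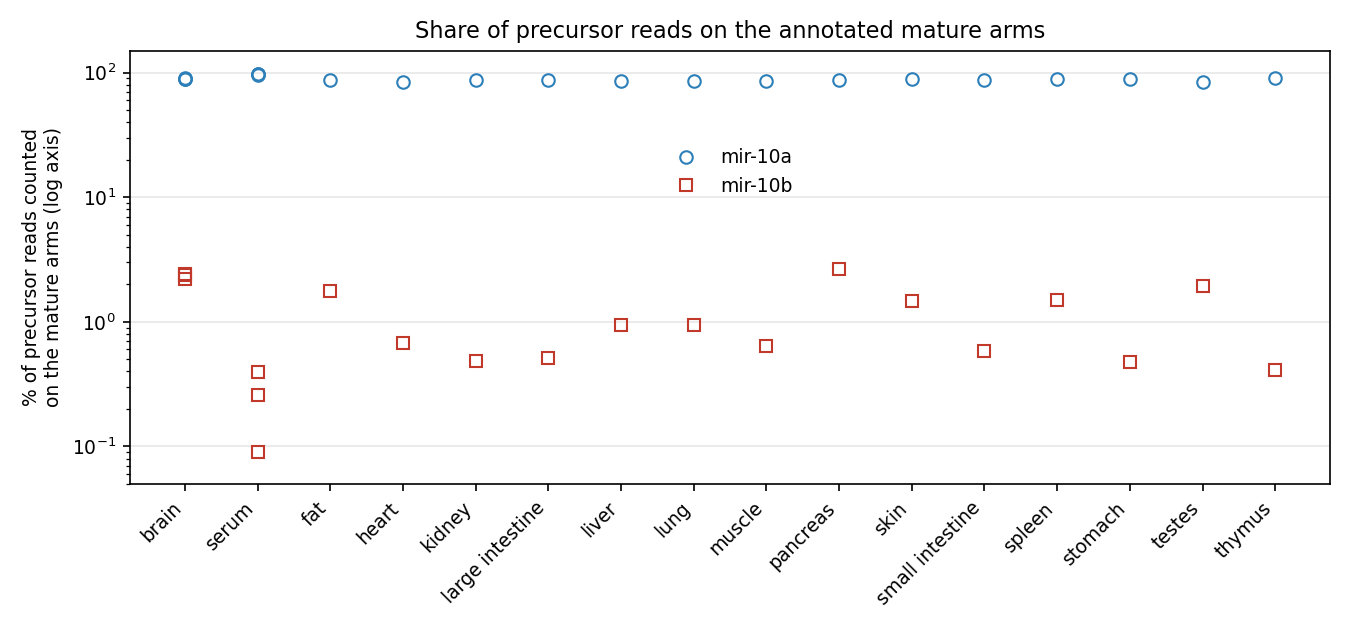
Share of the precursor reads of mir-10a (circles) and mir-10b (squares) that were counted on their annotated mature arms, in percent on a log axis, with 1 point per library. All mir-10a values lie between 84.8% and 97.8%, and all mir-10b values between 0.0907% and 2.68%, with the serum libraries lowest.

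The mir-196 precursors were found in fewer tissues and at far lower levels. At least 10 reads of any single one of them were found in 6 pools, fat, kidney, large intestine, muscle, skin and thymus, and in no hemisphere or serum library. Heart, liver, small intestine and pancreas held 0 reads of all 4 precursors. The library labelled pancreas carried liver mir-122, so no absence from pancreas is read from it. Lung, spleen, stomach and testes held 3, 2, 4 and 12 reads in all. A limit in reads depends on depth, and testes was the shallowest pool. The mir-196 precursors together made up 0.0074% of its reads, beside 0.0070% in thymus from 46 reads. In the small intestine library the floor of 3 reads was 6.40 RPM, so levels under that were not detectable there.

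mir-196a, from the HoxC cluster, was highest in muscle, with 1429 reads (1134 RPM), followed by fat with 483 (987 RPM), kidney with 434 (710 RPM) and skin with 236 (313 RPM). Testes held 7 reads (43.2 RPM) and the deeper large intestine library 14 (3.80 RPM). The hemispheres held 2, 0 and 0 reads, or 0.924 RPM over the 3 libraries, and serum held 0, 1 and 0. The muscle level was 1227 times that of the hemispheres together, with a 95% counting interval of 340 to 10133 that comes from the 2 brain reads.

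mir-196b, from the HoxA cluster, was highest in large intestine. Its copies held 1756 and 1851 reads there, 409 and 409 in muscle, 174 and 163 in kidney, 62 and 75 in skin, 55 and 68 in fat, and 22 and 23 in thymus. Summed over the copies the level was 979 RPM in large intestine, 649 in muscle, 551 in kidney, 251 in fat, 182 in skin and 68.3 in thymus. The RefSeq list, which has 1 entry for it, gave 5475 reads in large intestine, 1253 in muscle, 488 in kidney, 212 in skin, 171 in fat and 59 in thymus, more than the sum of the copies in each. No read was found in any hemisphere or serum library. Against the floor of 3 reads over the 3 hemispheres, 1.39 RPM, mir-196b-1 and mir-196b-2 in large intestine were at least 344-fold and 362-fold higher.

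mir-196c, from the HoxB cluster, was the most restricted. Large intestine held 1378 reads (374 RPM) and skin 33 (43.8 RPM), and kidney, fat, muscle and testes held 7, 5, 4 and 1. The level in large intestine was at least 270-fold above the floor of the hemispheres. It made up 27.6% of the mir-196 precursor reads of large intestine, 8.13% in skin, and under 1% in kidney, fat and muscle. The members thus took different shares in each tissue, with mir-196a leading in muscle, fat, kidney and skin, and mir-196b leading in large intestine and thymus. In kidney this lead turned with the annotation, since the RefSeq list gave mir-196b 488 reads and mir-196a 434.

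**Figure D4:**
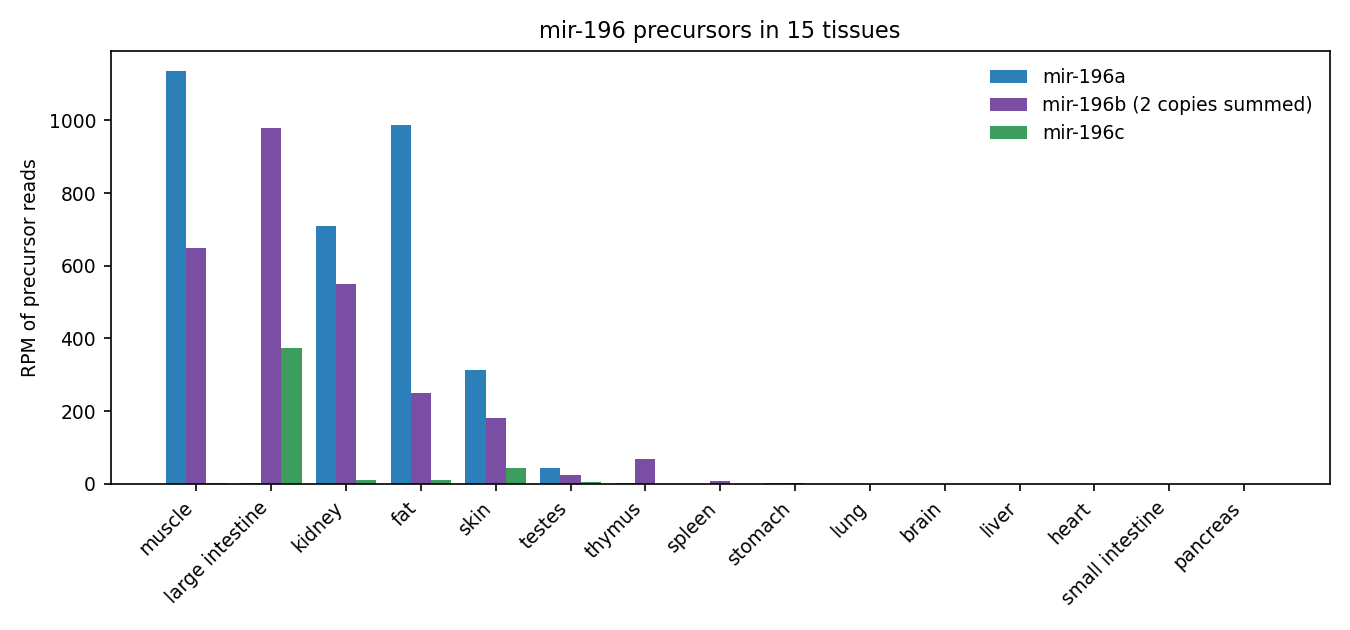
Levels of mir-196a, mir-196b (its 2 copies summed) and mir-196c in RPM of precursor reads on a linear axis, with tissues in the order of the summed level. Bars are single pools, or the mean of 3 hemispheres for brain. mir-196a reaches 1134 RPM in muscle, mir-196b 979 RPM and mir-196c 374 RPM in large intestine, and the bars of 8 tissues from spleen to pancreas are at or near 0.

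In the fit of brain over the pools, mir-196a, mir-196b-1 and mir-196b-2 were tested and mir-196c was not, because it reached 10 reads in only 2 libraries. The adjusted p-values were 0.0597 for mir-196a, 0.0532 for mir-196b-1 and 0.0397 for mir-196b-2 (edgeR), all toward lower levels in brain. The different calls of the mir-196b copies are not read as a difference between them. With mir-10a and mir-10b, 3 of the 5 tested precursors were called lower in brain, beside the 18.6% over all precursors. This count enters the mir-196b copies separately, although they share a mature miRNA, and includes mir-196b-2 without mir-196b-1. The mir-196 precursors also passed the filter only through the pools in which they were high. The call of mir-196b-2, like that of mir-10b, was lost when any hemisphere was left out (adjusted p = 0.109 to 0.128, edgeR). Fitted fold changes are not given for them, because against libraries at 0 they depend on the prior count. In serum over the pools the adjusted p-values were between 0.277 and 0.374 (edgeR). At serum depth, the 0 reads of each mir-196b copy over the 3 libraries allow a level of up to 114 RPM.

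The mature arms of mir-196 were highest in the pools where the precursors were high, but fat and kidney changed places for mir-196a. Its precursor stood at 987 RPM in fat and 710 RPM in kidney, and miR-196a-5p at 509 and 521 RPM of mature reads. By reads, miR-196a-5p held 531 in muscle, 197 in kidney, 162 in fat and 86 in skin, and miR-196a-3p held 2 in all pools. miR-196b-5p held 1557 reads in large intestine, 391 in muscle, 147 in kidney, 68 in skin, 48 in fat and 19 in thymus. miR-196c-5p held 419 reads in large intestine and miR-196c-3p 30, so that 6.68% of the arm reads of this miRNA were on the 3p arm there. Between 33.7% and 45.4% of the mir-196a reads of fat, kidney, muscle and skin were on its mature arms, between the shares of mir-10a and mir-10b.

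Levels across the 15 tissues were compared as a description, by Pearson's r of log2(RPM + 1). mir-10a and mir-10b had no common pattern (r = 0.03, Spearman's rho = 0.07). mir-10b varied with the mir-196 genes, at r = 0.80 with mir-196a, 0.83 with the summed mir-196b copies and 0.68 with mir-196c, while mir-10a had r = 0.11, 0.17 and 0.19 with them. mir-10a and mir-196c, which lie in the same Hox cluster, thus had r = 0.19. For mir-10a with mir-196a and the mir-196b copies, which lie in other clusters, it was 0.11 and 0.17. mir-10b is the only member in its cluster, so its values cannot set genes of the same cluster against genes of others. All points share library totals in which mir-10a and mir-10b are themselves large, and many mir-196 values are 0. The pancreas point comes from the library with liver mir-122, so it is not independent of the liver point.

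Of the 295 precursors with at least 10 reads in at least 3 libraries, the 5 most like mir-10b were mir-196b-2 (r = 0.84), mir-196a (0.80), mir-196b-1 (0.71), mir-204 (0.67) and mir-134 (0.65). Those most like mir-196a were mir-615 (0.86), mir-196b-2 (0.80), mir-10b (0.80), mir-196b-1 (0.73) and mir-653 (0.70). For mir-10a no precursor reached such values, and the 5 highest were mir-455 (0.56), mir-145 (0.54), mir-214 (0.51), mir-223 (0.49) and mir-365 (0.48). The mir-196b copies had each other first (0.94), then mir-196a and mir-10b, followed by mir-615 and mir-653. mir-615 is itself a Hox-cluster miRNA, inside the spans of Hoxc5 and Hoxc6, on the same chromosome as mir-196a. It held 68 reads in muscle (54.0 RPM), 34 in skin (45.2 RPM), 22 in fat (44.9 RPM) and 10 in kidney (16.4 RPM), the 4 tissues with the most mir-196a, and 1 read over the 3 hemispheres. Its adjusted p in brain over the pools was 0.0602 (edgeR).

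The relatives of mir-10 outside the Hox clusters, mir-99a, mir-99b, mir-100, mir-125a, mir-125b-1 and mir-125b-2, had another placement of the brain. Brain was the highest of the 15 tissues for 4 of the 6 and the second highest for mir-99b and mir-100, while mir-10a and mir-10b ranked 14 and 11. These ranks rest on library totals. With that scaling, 123 of 295 precursors were called higher in brain than in the pools, beside 71 with TMM scaling. How many of all precursors had brain as the highest tissue was not counted. Their mean levels in brain lay between 1108 RPM (mir-99a) and 4653 RPM (mir-125a). Against serum, 4 of the 6 were higher in brain and 1, mir-99b, was lower (log2 fold change -1.54, SE 0.23, adjusted p = 8.7e-05, edgeR), where 44.7% of all tested precursors were higher. Their median log2 fold change was 0.93, below the 2.15 over all tested precursors. That overall median fell to 0.69 when at least 10 counts were required in every library. Against the pools 0 of the 6 were called by edgeR at the adjusted threshold, where 1 of them, mir-125b-1, had an unadjusted p under 0.05. DESeq2 also called 0 of them against the pools, and against serum it called 2 higher and 1 lower. Over the 15 tissues, the highest level of any of these relatives was that of mir-100 in testes, 4788 RPM of precursor reads.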

How the data were processed

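Small RNA libraries of 3 brain hemispheres, 3 serum samples and 14 pooled tissues were prepared by the authors with the TruSeq Small RNA kit, sequenced on a MiSeq, trimmed at a phred score of 20, aligned to Rn5 with Bowtie in Partek Flow (versions not given in the sources used here) and quantified against miRBase (release 21) and RefSeq. The deposited values are estimated counts per miRNA, some of them fractional and none normalized, under 3 annotations. Each level was set against the total of its own annotation (RPM). Counts were rounded for edgeR 4.0.16 (R 4.3.3), whose quasi-likelihood test was fitted to the whole precursor list with TMM scaling, keeping precursors that reached 10 counts in 3 or more of the compared libraries, and p-values were adjusted by Benjamini-Hochberg (threshold 0.05). The edgeR procedure was run on 5 simulated data sets per comparison. Libraries were simulated as independent there, so the entry of 1 tissue as 3 libraries was not covered. Standard errors come from the fold change and the F statistic. Ratios of mir-10a to mir-10b had 0.5 added to each count and were tested by exact permutation (SciPy 1.17.1). Sequences and neighbouring genes are from RefSeq (GRCr8). The members, the lists and the tests were chosen with earlier results of these data known. All members were described in every library, and other miRNAs were named by a fixed rule: mir-615, 6 relatives of mir-10, the 5 precursors most like each member, and marker miRNAs of a tissue on which a result rests. Whether replicates of serum came from separate animals is given only by their labels, so p-values measure the spread between these libraries. The compared groups share the same 3 rats by the paper's account, but the main fits took all libraries as independent. Alternatives covered scaling, filters, DESeq2 1.42.0, annotation, pseudocounts, left-out libraries and a replicate block.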

Additional observations from a re-analysis of the deposited data

How the results depend on the processing

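The lower level of mir-10a in brain than in serum held in all 14 alternatives, and that of mir-10b in 13 of 14, the exception being the mature list (-0.25). With libraries left out the log2 fold changes ranged from -5.31 to -3.91 and from -4.06 to -2.66. Against the pools mir-10a ranged from -5.32 to -4.68 with 1 library left out, and with a single hemisphere it lost its call at -5.18, -5.25 and -4.55. mir-10b lost its call in 17 of 27 alternatives, among them library totals (-3.32), at least 10 counts in every library (-3.84), the mature list (-3.56), the RefSeq list (-4.50, adjusted p = 0.0524, edgeR) and single hemispheres (-5.07, -4.60 and -3.84), and ranged from -4.93 to -4.24 with 1 library left out, where the pools of fat, kidney, large intestine, skin, spleen, stomach and testes each ended the call. mir-196a and mir-196b-1 were called lower in brain than in the pools by DESeq2 and edgeR with its size factors, not with TMM. So was mir-196a on the mature list, and mir-196b-1 without the heart, lung or stomach pool. They passed the filter only through their high pools and brain counts as 3 libraries, so no result is read. mir-196b-2 lost its call in 6 alternatives, those with a hemisphere left out or alone.

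Serum over the pools turned positive for mir-10a in 7 alternatives, among them library totals (1.20) and serum replicate 2 alone (0.056). It ranged from -0.56 to 0.28 with 1 library left out. For mir-10b it turned positive with library totals (0.43) and ranged from -1.45 to -0.29. The ratio of serum minus the pools turned positive on the mature list (1.59) and without the pancreas pool (0.0049). With 1 replicate left out it ranged from -0.81 to -0.05, that of brain minus serum from -1.23 to -0.47, and that of brain minus the pools from -1.47 to -1.17. The brain level relative to the tissue median was -4.28 and -4.88 for mir-10a, and -2.90 and -3.36 for mir-10b, with TMM and DESeq2 scaling, and 0 for miR-10b-5p on the mature list, where brain was itself the median tissue. Without 1 hemisphere these levels ranged from -3.19 to -2.76 and from -1.92 to -1.21. With totals that leave out the members, chosen after seeing the data, neither moved by more than the spread of the hemispheres.

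Calls over all precursors numbered 149 for brain over serum, 126 for brain over the pools and 54 for serum over the pools. They fell to 46, 32 and 30 with at least 10 counts in every library, to 12, 11 and 10 with single hemispheres, and to 6, 6 and 6 with single serum libraries against the pools, and ranged from 55 to 141, 38 to 148 and 30 to 62 with libraries left out. Fewer precursors pass the stricter filter, and single libraries leave fewer samples. Brain over the pools had 71 higher and 55 lower with TMM scaling, 123 and 24 with library totals, and 52 and 82 with DESeq2 size factors, as the median log2 fold change went from 0.17 to 1.19 and to -0.51. Serum over the pools had 14 higher and 40 lower with TMM scaling, and 28 and 13 with library totals. On the RefSeq list, mir-10a in small intestine stood at 27352 RPM from the same 24789 reads.

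Brain and serum share replicate numbers, but the labels do not say that a number marks an animal. Deviations of same-numbered libraries correlated at 0.10, -0.11 and -0.08 over 75 precursors, and not every library correlated best with its own number. With a replicate block the fold changes were -4.91 for mir-10a and -3.91 for mir-10b, and 141 precursors were called. Depth limits serum most, where 3 reads over the 3 libraries correspond to 114 RPM.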
